A study of Mus musculus with 6 samples.

Results

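Satellite cells (SCs), the stem cells of skeletal muscle, lie among endothelial cells, blood cells, fibro-adipogenic progenitors, mural cells of vessels, Schwann cells of nerves and tendon cells. A set of 36 genes that mark these other cell types was read in sorted SCs as a check of the purity of the sorts. All 36 genes were measured, out of 22180 genes in all, each by the probe set that carries exactly 1 gene symbol and has the highest mean over the arrays. There were 6 endothelial, 11 blood, 5 fibro-adipogenic, 6 mural, 4 glial and 4 tendon markers.

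The samples were 3 *Slug*+/+ (wild-type) and 3 *Slug*-/- (constitutive knockout) SC preparations from resting, uninjured hindlimb muscle of adult male C57BL6 mice, with 1 Affymetrix whole-transcript array for each. No preparation was treated or cultured. SCs were sorted as cells negative for CD45, CD11b, CD31 and Sca1 and positive for CD34 and integrin-α7. The knockout is present in every cell of the animal, so the other cell types of *Slug*-/- muscle lack *Slug* too, and the labels do not say whether each replicate came from its own mouse. The p-values below therefore measure only the spread between these samples.

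Each antigen of the sort has a known cell type. CD45 is carried by blood cells, CD11b by myeloid cells and CD31 by endothelial cells, while Sca1 is carried by endothelial and fibro-adipogenic cells. A sort acts on proteins of the cell surface, and the array reads RNA. Pericytes and smooth muscle cells of vessels, Schwann cells and tendon cells need not carry any of the 4 excluded antigens. Such cells are then kept out only where they lack CD34 or integrin-α7, and whether they do was not tested. Their markers thus read another side of the gate than the blood and endothelial markers do.

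Values are log2 expression values as deposited, so that a difference of 1 is a fold of 2. Olfactory receptor genes, which muscle has little use for, served to set the background. Their median, over 1105 genes, 1.64 to 1.78 across arrays, and their 95th percentile lay between 2.97 and 3.24. A marker is called above background on an array where it exceeds the 95th percentile of the olfactory receptor genes of the same array. Of the olfactory receptor genes themselves, 22 (1.99%) were above it on all 6 arrays. The probes of different genes bind with different strength, so levels are compared between arrays for the same gene and not between genes.

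The gene targeted in the mice was read first. *Snai2*, which encodes Slug, was 6.25 to 6.66 on *Slug*+/+ arrays and 4.59 to 5.15 on *Slug*-/- arrays, although probes outside the deleted part of the gene would check nothing. All 12 genes of a list of SC markers (*Pax7*, *Myf5*, *Cd34*, *Itga7*, *Vcam1*, *Cdh15*, *Calcr*, *Sdc4*, *Chodl*, *Itgb1*, *Cxcr4* and *Msc*) were above background on all 6 arrays, at 5.41 to 10.73. *Slug*+/+ replicate 2 was the lowest array for 8 of the 12. *Msc*, the transcription factor musculin, did not overlap between genotypes and was higher in *Slug*-/- SCs by 0.95 (standard error 0.22, unadjusted p = 0.00321, adjusted p = 0.726 from limma). It is singled out because of these values, which come from the brighter of its 2 probe sets. *Cd34*, a positive antigen of the sort, was 8.31, 8.12 and 8.82 on *Slug*+/+ arrays and 8.26, 8.75 and 8.38 on *Slug*-/- arrays. *Itga7*, the other, was 7.93, 7.79 and 7.99 on *Slug*+/+ arrays and 8.37, 7.92 and 8.49 on *Slug*-/- arrays. The array medians over all probe sets lay between 2.87 and 2.96.

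Of the 36 markers, 18 were above background on all 6 arrays, 8 on some arrays and 10 on none. Of all 22180 genes, 41.7% were above background on all 6 arrays and 39.2% on none, against 50% and 27.8% of the markers. The number of markers above background was 22, 19 and 22 for *Slug*+/+ SCs and 21, 24 and 22 for *Slug*-/- SCs, so the genotypes overlapped. The classes differed in how many of their markers were above background throughout. This held for 2 of 11 blood markers, 3 of 6 endothelial, 3 of 5 fibro-adipogenic, 5 of 6 mural, 3 of 4 glial and 2 of 4 tendon markers. At the stricter limit of the 99th percentile of olfactory receptor genes, 9 markers were above on all arrays, namely *Cdh5*, *Cd68*, *Pdgfrb*, *Dpt*, *Acta2*, *Tagln*, *Myh11*, *Scx* and *Thbs4*.

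**Figure D1:**
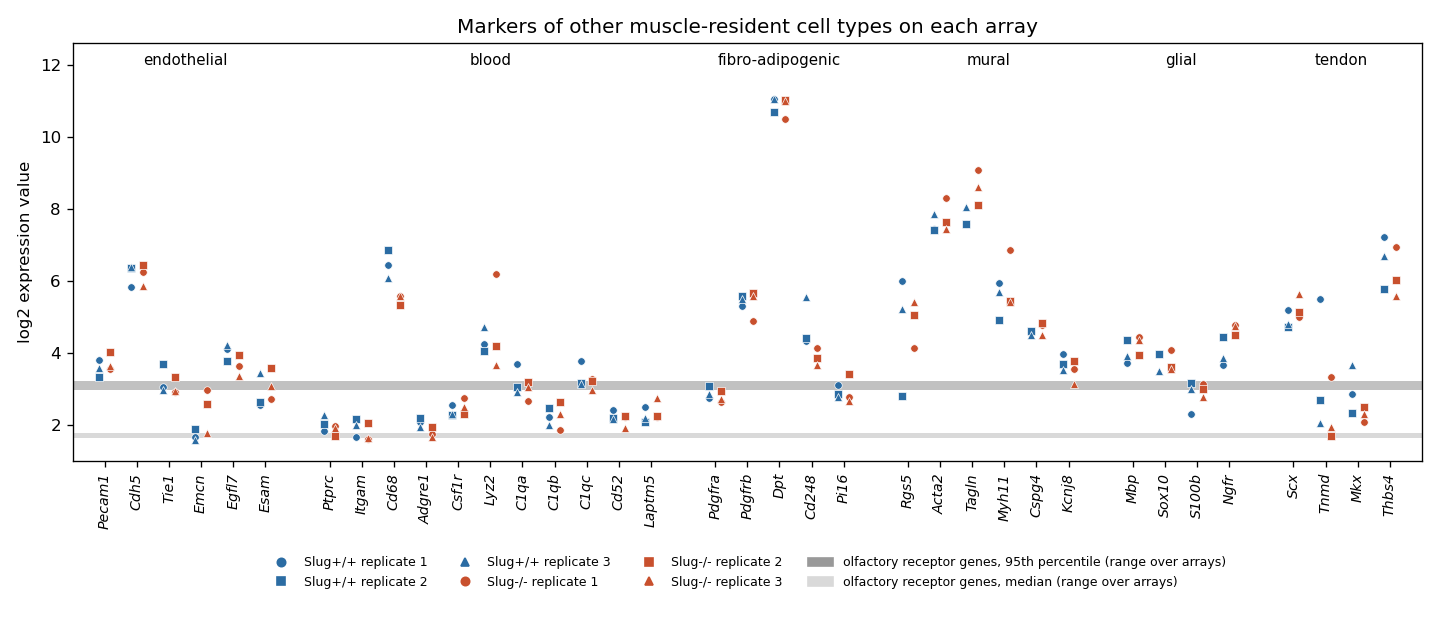
Log2 expression value (vertical axis) of each of the 36 markers (horizontal axis, grouped by cell type) on the 3 Slug+/+ arrays (blue) and the 3 Slug-/- arrays (orange), 1 point per array. The grey bands give the range over arrays of the median (1.64 to 1.78) and of the 95th percentile (2.97 to 3.24) of the olfactory receptor genes. Most blood markers sit at or between the bands, and the mural markers sit mostly above them.

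The genes of the antigens that exclude blood cells were at background on every array. *Ptprc*, which encodes CD45, was 1.84, 2.02 and 2.29 in *Slug*+/+ SCs and 1.97, 1.72 and 1.93 in *Slug*-/- SCs. *Itgam*, which encodes CD11b, was 1.67, 2.19 and 2.01 in *Slug*+/+ and 1.61, 2.07 and 1.66 in *Slug*-/- SCs. Both are well inside the olfactory receptor range, and the genotypes overlapped. *Ly6a*, which encodes Sca1, was not used here because no probe set carried its symbol alone.

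Most other blood markers were at background as well. *Adgre1* (the macrophage receptor F4/80), *Csf1r* (the receptor of the macrophage growth factor CSF1), *C1qb* (a subunit of complement C1q), *Cd52* and *Laptm5* (both membrane proteins of blood cells) were above background on no array. Together with *Ptprc* and *Itgam*, these 7 markers lay between 1.61 and 2.77. The other subunits of complement C1q, which macrophages make, sat at the edge of background. *C1qa* was 3.71, 3.07 and 2.93 in *Slug*+/+ and 2.69, 3.21 and 3.05 in *Slug*-/- SCs. *C1qc* was 3.77, 3.18 and 3.13 in *Slug*+/+ and 3.30, 3.23 and 2.97 in *Slug*-/- SCs. Both were highest on the array of *Slug*+/+ replicate 1, while *C1qb* on that array was 2.22.

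Only *Cd68* and *Lyz2* among the blood markers were above background on all 6 arrays. *Lyz2*, the lysozyme of macrophages and neutrophils, was 4.26, 4.06 and 4.73 in *Slug*+/+ and 6.18, 4.20 and 3.67 in *Slug*-/- SCs. It was the marker with the widest spread among *Slug*-/- arrays (SD 1.32, n = 3), because of the single high value of *Slug*-/- replicate 1. On that array *Ptprc* was 1.97, *Itgam* 1.61, *Adgre1* 1.75 and *Csf1r* 2.77, all at background. *Cd68* at 5.58 and *C1qc* at 3.30 were above background on the same array. So were, of the further list, *Cx3cr1* at 4.59, *Fcer1g* at 3.49 and *Spi1* at 3.42. None of these genes above background was highest on that array. *Csf1r* was highest there while below background, as were *Cd3g* and *H2-Aa* of the further list. Below background there were, among others, *C1qa* at 2.69 and, of the further list, *Tyrobp* at 2.61, *Ctss* at 2.73, *Lcp1* at 2.93 and *Coro1a* at 3.11. Between genotypes *Lyz2* differed by 0.34 (standard error 0.59, adjusted p = 0.968 from limma), and it was -0.41 without *Slug*-/- replicate 1.

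*Cd68*, a glycoprotein of lysosomes that is abundant in macrophages, was lower on every *Slug*-/- array. Its values were 6.44, 6.86 and 6.09 in *Slug*+/+ and 5.58, 5.34 and 5.58 in *Slug*-/- SCs (probe set 17264835). The genotypes did not overlap. The log2 difference was -0.96 (standard error 0.23, 95% confidence interval -1.49 to -0.42), or 1.94-fold (limma, unadjusted p = 0.00354, adjusted p = 0.726). *Cd68* thus did not pass the adjusted test and fell just short of a fold of 2. It passed a fold of 2 at -1.14 without *Slug*+/+ replicate 3 and at -1.06 with quantile normalization, and stayed between -1.14 and -0.76 whichever array was left out. The arrays of the other 10 blood markers overlapped between genotypes, with *Adgre1* the most negative at -0.30 and *Lyz2* the most positive. Of these, 7 were above background on no array, where a change could be missed. Over all 11 blood markers, 7 differences were negative and 4 positive, with a median of -0.18. Of 20 further blood genes, 1 was above background on all 6 arrays, 8 on some and 11 on none. *Cx3cr1*, the fractalkine receptor of monocytes and macrophages, was 4.54 ± 0.19 in *Slug*+/+ and 4.18 ± 0.36 in *Slug*-/- SCs (SD, n = 3 each). *Coro1a*, the actin-binding protein coronin of blood cells, was above background on 5 arrays, at 3.48 ± 0.26 and 3.44 ± 0.30. In an array of sorted cells, fewer cells of a type and less of its RNA per cell cannot be told apart, which holds for every class below.

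The endothelial markers were split around background. *Pecam1*, which encodes CD31, was low but above background on all 6 arrays, at 3.81, 3.35 and 3.60 in *Slug*+/+ and 3.55, 4.02 and 3.65 in *Slug*-/- SCs. These values stood above 96.0% to 98.5% of the olfactory receptor genes of the same array. *Cdh5*, which encodes VE-cadherin of endothelial junctions, was 5.85, 6.37 and 6.38 in *Slug*+/+ and 6.25, 6.44 and 5.87 in *Slug*-/- SCs. That is above at least 99.7% of olfactory receptor genes on every array. *Egfl7*, a factor secreted by endothelial cells, was 4.13, 3.78 and 4.22 in *Slug*+/+ and 3.65, 3.96 and 3.37 in *Slug*-/- SCs.

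The other endothelial markers were at or near background. *Tie1*, an orphan receptor of the angiopoietin system, was 3.08, 3.69 and 2.98 in *Slug*+/+ and 2.92, 3.33 and 2.94 in *Slug*-/- SCs. *Esam*, an adhesion molecule of endothelial junctions, was 2.57, 2.64 and 3.44 in *Slug*+/+ and 2.73, 3.58 and 3.10 in *Slug*-/- SCs. Each was above background on only some arrays of either genotype. *Emcn*, the sialomucin endomucin of capillaries and veins, was above background on no array, at 1.67, 1.89 and 1.60 in *Slug*+/+ and 2.98, 2.60 and 1.80 in *Slug*-/- SCs. Its difference was 0.74 (standard error 0.30, unadjusted p = 0.0421, adjusted p = 0.858 from limma), but with both genotypes below background no fold is given, and the arrays overlapped. With single arrays left out the difference was lowest, at 0.48, if *Slug*-/- replicate 1 was dropped and highest, at 1.07, if *Slug*-/- replicate 3 was, and its unadjusted p was above 0.05 in 5 of these 6 settings, at most 0.137.

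The further endothelial genes gave the same mixed picture. Of 15 such genes, 3 were above background on all 6 arrays, 7 on some and 5 on none. *Tek*, the angiopoietin receptor, was 6.80, 6.47 and 7.48 in *Slug*+/+ and 6.53, 7.29 and 7.10 in *Slug*-/- SCs. *Fabp4*, a fatty acid carrier of capillaries and fat cells, was 6.42, 5.21 and 6.82 in *Slug*+/+ and 6.56, 7.03 and 6.07 in *Slug*-/- SCs. In contrast, *Flt1*, *Plvap*, *Robo4*, *Erg* and *Sox18*, all genes of endothelial cells, were above background on no array. Whether the RNA of *Cdh5*, *Tek* and *Fabp4* came from endothelial cells or from SCs themselves was not tested.

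The fibro-adipogenic markers split in the same way. *Dpt*, which encodes the matrix protein dermatopontin, was 11.06, 10.69 and 11.04 in *Slug*+/+ and 10.51, 11.03 and 10.997 in *Slug*-/- SCs, above every olfactory receptor gene on every array. *Pdgfra*, the receptor that defines fibro-adipogenic progenitors, was above background on no array, at 2.75, 3.08 and 2.86 in *Slug*+/+ and 2.64, 2.96 and 2.73 in *Slug*-/- SCs. *Pi16*, a marker of adventitial fibroblasts, was 3.11, 2.88 and 2.78 in *Slug*+/+ and 2.77, 3.42 and 2.68 in *Slug*-/- SCs, above background on *Slug*-/- replicate 2 alone. *Dpt* was thus above background where the defining receptor was not. Since probes of different genes bind with different strength, this does not show that *Pdgfra* RNA was absent. *Pdgfrb*, the receptor that fibro-adipogenic and mural cells both carry, was 5.31, 5.59 and 5.51 in *Slug*+/+ and 4.90, 5.68 and 5.57 in *Slug*-/- SCs.

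*Cd248*, which encodes endosialin of stromal cells and pericytes, was lower on every *Slug*-/- array. It was 4.34, 4.41 and 5.55 in *Slug*+/+ and 4.13, 3.88 and 3.67 in *Slug*-/- SCs (probe set 17356369). The genotypes did not overlap, although *Slug*+/+ replicate 3 stood well above the other *Slug*+/+ arrays. The log2 difference was -0.87 (standard error 0.34, unadjusted p = 0.0334, adjusted p = 0.83 from limma), and it was -0.48 without *Slug*+/+ replicate 3 (unadjusted p = 0.0624). Without *Slug*-/- replicate 2 or 3 the unadjusted p was 0.0723 or 0.0972. It passed a fold of 2 at -1.09 without *Slug*+/+ replicate 1 and at -1.05 without *Slug*+/+ replicate 2. *Dpt*, *Pdgfra*, *Pdgfrb* and *Pi16* had differences of -0.08, -0.12, -0.09 and 0.03.

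Of 11 further fibro-adipogenic genes, 8 were above background on all 6 arrays and the rest on some. *Dcn*, the proteoglycan decorin, was 10.21, 10.10 and 10.61 in *Slug*+/+ and 9.96, 10.61 and 10.04 in *Slug*-/- SCs. *Gsn*, the actin-severing protein gelsolin, was 7.98 ± 0.06 in *Slug*+/+ and 8.09 ± 0.07 in *Slug*-/- SCs (SD, n = 3 each). *Lum*, the proteoglycan lumican, was the only gene of the further lists that passed both a fold of 2 and the unadjusted threshold, at 3.64, 2.96 and 2.80 in *Slug*+/+ and 4.43, 4.92 and 3.20 in *Slug*-/- SCs. Its difference was 1.05 (standard error 0.45, unadjusted p = 0.0482, adjusted p = 0.858 from limma), with overlapping arrays, and *Lum* is named because of these values.

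The mural markers were the class most often above background, with 5 of 6 above it on all 6 arrays. They comprise genes of the contractile apparatus of smooth muscle (*Acta2*, *Tagln*, *Myh11*) and genes of pericytes (*Rgs5*, *Cspg4*, *Kcnj8*). *Acta2*, smooth muscle α-actin, was 7.44, 7.42 and 7.85 in *Slug*+/+ and 8.29, 7.64 and 7.44 in *Slug*-/- SCs. *Tagln*, the actin-binding protein transgelin, was 7.59, 7.58 and 8.05 in *Slug*+/+ and 9.09, 8.12 and 8.62 in *Slug*-/- SCs (probe set 17526576). *Myh11*, the myosin heavy chain of smooth muscle, was 5.94, 4.93 and 5.69 in *Slug*+/+ and 6.86, 5.44 and 5.41 in *Slug*-/- SCs. For all of these contractile genes the highest array was *Slug*-/- replicate 1 and the lowest was *Slug*+/+ replicate 2 in each case.

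Only *Tagln* among the contractile genes separated the genotypes. It was higher on every *Slug*-/- array, by 0.87 (standard error 0.28, 95% confidence interval 0.22 to 1.51, unadjusted p = 0.0154, adjusted p = 0.823 from limma). Left-out arrays put the difference between 0.63 (without *Slug*-/- replicate 1) and 1.11 (without *Slug*-/- replicate 2). It passed a fold of 2 without *Slug*-/- replicate 2 and, at 1.02, without *Slug*+/+ replicate 3. *Acta2* differed by 0.22 (standard error 0.26) and *Myh11* by 0.38 (standard error 0.44), and without *Slug*-/- replicate 1 they differed by -0.030 and -0.097. The summed linear signal of the 6 mural markers was 437 to 620 on *Slug*+/+ arrays, 596 and 683 on *Slug*-/- replicates 2 and 3, and 1031 on *Slug*-/- replicate 1. *Tagln* was higher in *Slug*-/- SCs without that array too, with an unadjusted p of 0.0488.

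The pericyte genes were not highest on *Slug*-/- replicate 1, though *Rgs5* shared its lowest array, *Slug*+/+ replicate 2, with the contractile genes. *Rgs5*, a regulator of G protein signalling, was 6.0, 2.81 and 5.21 in *Slug*+/+ and 4.15, 5.06 and 5.43 in *Slug*-/- SCs. On *Slug*+/+ replicate 2 it was below background and elsewhere well above it, a range of 3.19 over the arrays. *Rgs5* was the only one of the 36 markers with more than 1 probe set, and the other probe set was at 2.53 on *Slug*+/+ replicate 2 and 2.5 to 3.48 elsewhere. *Cspg4*, the proteoglycan NG2, was 4.6, 4.62 and 4.5 in *Slug*+/+ and 4.79, 4.85 and 4.5 in *Slug*-/- SCs. *Kcnj8*, a subunit of potassium channels of pericytes, was 3.99, 3.69 and 3.54 in *Slug*+/+ and 3.57, 3.78 and 3.15 in *Slug*-/- SCs. *Cspg4* had the narrowest range of all 36 markers, 0.35, and *Rgs5* the second widest after *Tnmd*.

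Of 10 further mural genes, 6 were above background on all 6 arrays. *Notch3*, a Notch receptor of mural cells that SCs carry too, was 8.20, 8.02 and 8.05 in *Slug*+/+ and 8.03, 7.96 and 8.33 in *Slug*-/- SCs. *Vtn*, the plasma and matrix protein vitronectin, was 7.74 ± 0.36 in *Slug*+/+ and 7.43 ± 0.28 in *Slug*-/- SCs (SD, n = 3 each). The contractile genes of this list shared the high array of *Slug*-/- replicate 1. *Myl9*, a myosin light chain, was 7.52 there and 5.95 to 6.72 elsewhere, and *Cnn1*, calponin, was 4.62 there and 3.12 to 3.63 elsewhere. *Mcam*, an adhesion molecule of vessels, was 6.35, 4.72 and 6.44 in *Slug*+/+ and 7.21, 6.60 and 6.64 in *Slug*-/- SCs without overlap (0.98, standard error 0.46, unadjusted p = 0.0667, adjusted p = 0.877 from limma).

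Among the glial markers *Ngfr* alone separated the genotypes. *Ngfr*, the p75 neurotrophin receptor of Schwann cells, was 3.67, 4.45 and 3.87 in *Slug*+/+ and 4.78, 4.51 and 4.76 in *Slug*-/- SCs (probe set 17268210). The arrays did not overlap, but *Slug*+/+ replicate 2 and *Slug*-/- replicate 2 lay close to each other. The log2 difference was 0.69 (standard error 0.24, 95% confidence interval 0.14 to 1.24, unadjusted p = 0.0211, adjusted p = 0.823 from limma). It lay between 0.53 and 0.91 with single arrays left out, and its unadjusted p was above 0.05 in 4 of these 6 settings, at most 0.0705.

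The other glial markers did not separate the genotypes. *Mbp*, myelin basic protein, was 3.72, 4.36 and 3.91 in *Slug*+/+ and 4.44, 3.96 and 4.37 in *Slug*-/- SCs. Within each genotype it ranked the arrays in the same order as *Ngfr* did. *Sox10*, the transcription factor of glia and melanocytes, was 3.98, 3.96 and 3.50 in *Slug*+/+ and 4.10, 3.60 and 3.57 in *Slug*-/- SCs. *S100b*, a calcium-binding protein of glia, was above background on no array, at 2.33, 3.18 and 3.0 in *Slug*+/+ and 3.15, 3.02 and 2.77 in *Slug*-/- SCs. Values of *Mbp* and *Sox10* were only modestly above background and overlapped between genotypes.

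Of 8 further glial genes, 4 were above background throughout. *Pmp22*, a membrane protein of myelin that many cells also make, was 9.03 ± 0.14 and 9.17 ± 0.14 in *Slug*+/+ and *Slug*-/- SCs (SD, n = 3 each). *Ptprz1*, a receptor phosphatase, was 5.94, 6.28 and 7.09 in *Slug*+/+ and 5.78, 5.45 and 6.82 in *Slug*-/- SCs. *Erbb3*, the neuregulin receptor of Schwann cells, was higher on every *Slug*-/- array, at 3.47, 2.58 and 3.49 in *Slug*+/+ and 4.61, 3.85 and 3.65 in *Slug*-/- SCs (0.85, standard error 0.34, unadjusted p = 0.0381, adjusted p = 0.85 from limma). *Cdh19*, a cadherin of Schwann cells, was 3.97, 2.12 and 2.13 in *Slug*+/+ and 5.15, 2.67 and 3.20 in *Slug*-/- SCs. *Erbb3* and *Cdh19* were both highest on *Slug*-/- replicate 1, as were *Ngfr*, *Mbp*, *Sox10*, *Cnp* and *Gfra3*, the last above background on no array. *Ngfr* and *Mbp* were nearly as high on *Slug*-/- replicate 3, at 4.76 and 4.37. The other glial genes were highest elsewhere: *Pmp22* on *Slug*-/- replicate 2, *S100b* and *Mag* on *Slug*+/+ replicate 2, and *Ptprz1* and *Foxd3* on *Slug*+/+ replicate 3. These further genes are named because of their values.

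The tendon markers varied most from array to array. *Tnmd*, the membrane protein tenomodulin of mature tendon cells, was 5.49, 2.71 and 2.05 in *Slug*+/+ and 3.34, 1.70 and 1.96 in *Slug*-/- SCs. It was above background only on replicate 1 of each genotype, and its range of 3.79 was the widest of the 36 markers. *Thbs4*, the matrix protein thrombospondin 4, was 7.23, 5.77 and 6.69 in *Slug*+/+ and 6.94, 6.02 and 5.60 in *Slug*-/- SCs. *Thbs4* was thus also highest on replicate 1 of each genotype.

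The tendon transcription factors did not follow *Tnmd*. *Scx*, scleraxis, was 5.19, 4.73 and 4.80 in *Slug*+/+ and 5.01, 5.15 and 5.64 in *Slug*-/- SCs. *Mkx*, mohawk, was above background on *Slug*+/+ replicate 3 alone, at 2.88, 2.35 and 3.67 in *Slug*+/+ and 2.09, 2.5 and 2.33 in *Slug*-/- SCs. The difference for *Tnmd* was -1.09 (standard error 0.86, adjusted p = 0.921 from limma), which was -0.05 without *Slug*+/+ replicate 1. Its fold is past 2 but its unadjusted p was 0.246. Of 8 further tendon genes, 4 were above background on all 6 arrays, 3 on some and 1 on none. *Kera*, the proteoglycan keratocan of tendon and cornea in the further list, was 4.70, 2.99 and 3.16 in *Slug*+/+ and 5.21, 4.09 and 4.10 in *Slug*-/- SCs, again highest on replicate 1 of each genotype. The same held for *Comp* of that list, but not for its other genes, *Fmod*, *Tnc*, *Col11a1*, *Col22a1*, *Cilp2* and *Egr1*. The brightest gene of that list, *Egr1*, is a transcription factor of tendon development but also an immediate early gene of many cells, and it was 10.92 ± 0.06 in *Slug*+/+ and 10.68 ± 0.33 in *Slug*-/- SCs (SD, n = 3 each).

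**Figure D2:**
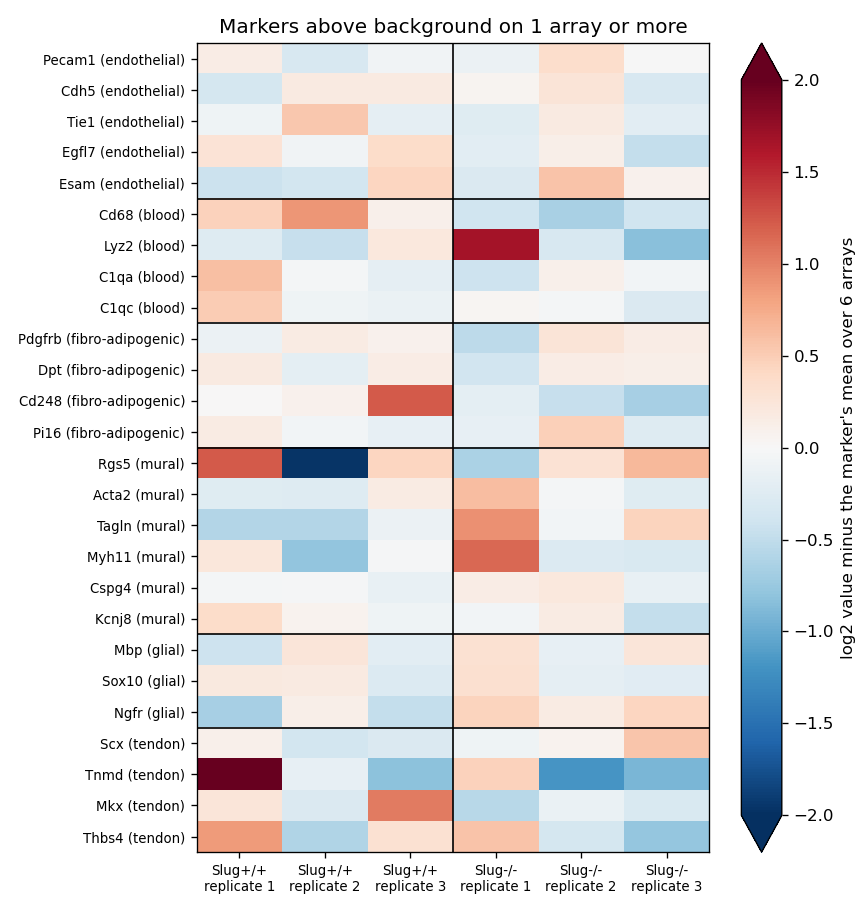
Deviation of each marker from its own mean over the 6 arrays (colour, log2 scale, clipped at 2 in either direction), for the 26 markers above background on 1 array or more (rows, by cell type) on each array (columns). Tnmd is high on Slug+/+ replicate 1, Rgs5 is low on Slug+/+ replicate 2, and Lyz2, Acta2, Tagln and Myh11 are high on Slug-/- replicate 1.

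Of the 18 markers above background on all arrays, 7 were highest on *Slug*-/- replicate 1, where 18.4% of all genes above background throughout were highest. The same array was the lowest for 2 of the 18. *Slug*-/- replicate 3 and *Slug*+/+ replicate 2 were each highest for 1 of the 18 and lowest for 5. Of all genes above background throughout, *Slug*-/- replicate 3 was highest for 21.3% and lowest for 12.9%, and *Slug*+/+ replicate 2 was highest for 13.3% and lowest for 21.1%. The median range over arrays was 0.86 for these 18 markers and 0.95 for the 9239 genes above background on all arrays.

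Summed linear signal, in the arbitrary units of the arrays, overlapped between genotypes for each class. It was 107 to 136 in *Slug*+/+ and 101 to 147 in *Slug*-/- SCs for the endothelial markers, and 142 to 182 against 108 to 167 for the blood markers. It was 1738 to 2211 against 1515 to 2180 for the fibro-adipogenic markers, nearly all of it from *Dpt*. The glial markers summed to 46.7 to 67.1 against 58.5 to 75.2 and the tendon markers to 92.8 to 239 against 107 to 169, where the highest value was that of *Slug*+/+ replicate 1. The mural sums, given above, overlapped as well.

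Between genotypes, 0 of the 36 markers passed the thresholds of the study, which ask for a change above 2-fold and an unadjusted p under 0.05. Of all genes 0.897% passed, 0.586% higher and 0.311% lower in *Slug*-/- SCs. After Benjamini-Hochberg adjustment limma called 0 markers and 0 of all 22180 genes (0%), the smallest adjusted p being 0.435. Before adjustment 1286 genes (5.8%) were under 0.05. At an unadjusted p under 0.05 there were 5 markers, *Emcn*, *Tagln* and *Ngfr* higher and *Cd68* and *Cd248* lower in *Slug*-/- SCs. The share of all genes was 3.31% in the higher and 2.49% in the lower direction. With a plain unpaired test, in which each gene has its own variance, *Cd68* alone remained of these 5. The median difference over the 36 markers was -0.03, with 17 positive and 19 negative, beside a median of -0.01 over all genes.

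The arrays of the genotypes did not overlap for 4 markers, *Tagln* and *Ngfr* on the higher and *Cd68* and *Cd248* on the lower side. That is 11.1% of the markers, and 10.6% of all genes had arrays that did not overlap, 5.24% higher and 5.4% lower. The share of the markers was thus close to that of all genes. Each of these 4 markers came from a different class, and the other 32 overlapped, with differences from -1.09 (*Tnmd*) to 0.74 (*Emcn*). Of the 72 further genes measured from 77 listed, 2 were at an unadjusted p under 0.05, *Lum* and *Erbb3*, both higher, and 4 did not overlap, *Kdr* (0.33), *Mcam* and *Erbb3* higher and *Foxd3* (-0.12) lower.

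**Figure D3:**
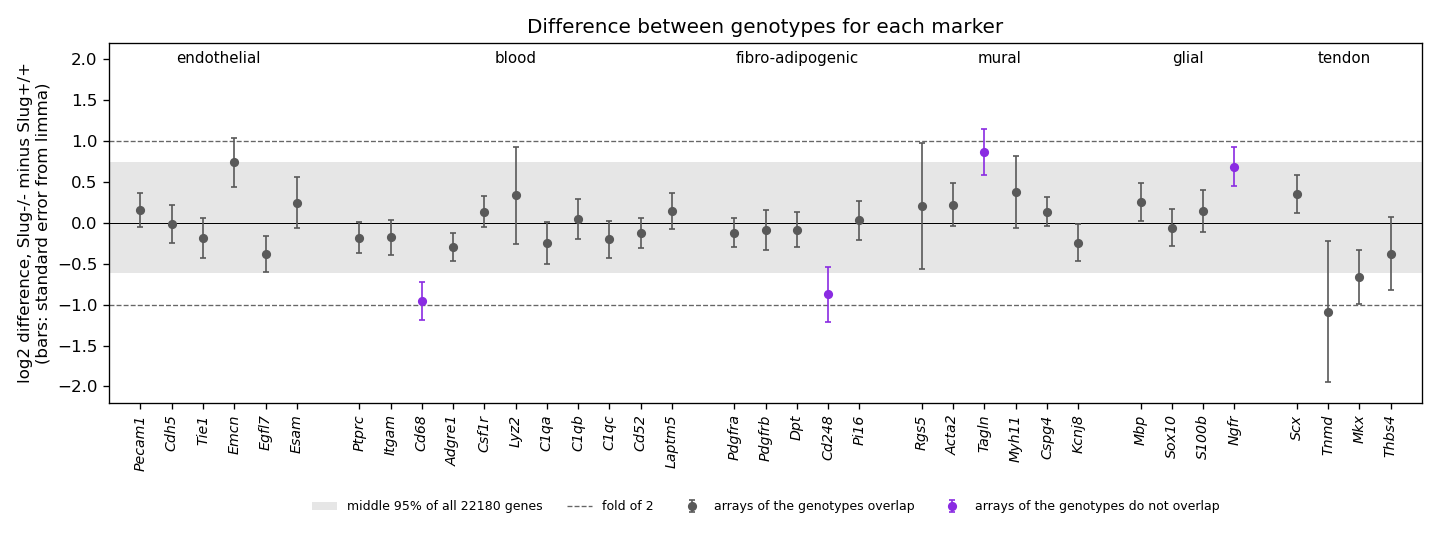
Log2 difference between Slug-/- and Slug+/+ SCs (vertical axis, bars give the standard error from limma, n = 3 arrays per genotype) for each of the 36 markers. The shaded band holds the middle 95% of all 22180 genes (-0.61 to 0.74) and dashed lines mark a fold of 2. Of the 4 markers whose arrays did not overlap (purple), Cd68 and Cd248 lie below the band, Tagln above it and Ngfr inside it.

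The range of differences that the arrays allow was wide for some markers. The 95% confidence interval from limma was -0.62 to 0.25 for *Ptprc*, -0.68 to 0.32 for *Itgam* and -0.33 to 0.64 for *Pecam1*, the genes of the excluding antigens. It was -1.58 to 1.99 for *Rgs5*, -1.05 to 1.72 for *Lyz2* and -3.10 to 0.93 for *Tnmd*. A fold of 2 between genotypes lies outside the first 3 intervals and inside the other 3. For *Ptprc* and *Itgam* the values are at background, where the array may not follow changes in RNA, so these intervals describe measured signal only.

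Genes of mature muscle fibres, whose fragments can follow SCs through a sort, were read as a last class. Of 10 such genes, 6 were above background on all 6 arrays, 1 on some and 3 on none. *Acta1*, skeletal α-actin, was 5.72, 5.98 and 6.13 in *Slug*+/+ and 6.48, 6.01 and 6.90 in *Slug*-/- SCs. *Ckm*, muscle creatine kinase, was 4.41, 4.06 and 4.21 in *Slug*+/+ and 4.08, 3.81 and 4.17 in *Slug*-/- SCs. *Atp2a1*, the calcium pump of fast fibres, was 6.14, 7.05 and 6.59 in *Slug*+/+ and 5.62, 6.03 and 6.15 in *Slug*-/- SCs, the only one of the 10 at an unadjusted p under 0.05 (-0.66, standard error 0.27, unadjusted p = 0.0427, adjusted p = 0.858 from limma), with overlapping arrays. The genes of this list are named with their values known. The fast myosin heavy chains *Myh1* and *Myh2* were at background on every array.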

How the data were processed

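RNA of 6 sorted SC preparations was labelled by the authors for Affymetrix Mouse Gene ST arrays and processed with Gene Expression Console. The algorithm chosen there is not stated. The authors deposited log2 expression for every probe set on each array. Each array has a column of its own, and 0 sample columns were left unused. Precision is limited by how many arrays there are. Of 41345 probe sets, 23521 carry 1 symbol in the platform's annotation, 1820 name several and 16004 have no name in it. Each of 22180 genes is read by its brightest probe set with 1 symbol (1082 genes have several), of which 21994 matched the reference gene table by Entrez ID with 0 differing symbols. Dim probe sets were kept.

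*Slug*-/- was compared with *Slug*+/+ over all genes with limma 3.58.1 in R 4.3.3 (lmFit and eBayes, with a prior df of 3.57), adjusting p by Benjamini-Hochberg. Thresholds in limma were a 2-fold change with the unadjusted p at 0.05, and 0.05 for the adjusted p. The fit was tested on simulated data. Background is the 95th percentile of the genes whose symbol starts with Olfr. The markers, the further lists and the tests were chosen with earlier results of these data known. All 36 markers are named, with values per array for those above background on 1 array or more, for genes of the sort antigens and for those past a threshold or without overlap. Of each further list the 2 brightest are named, and others where the text says so or where a count singles them out. Genes of the further lists that had no probe set with 1 symbol are not reported here, and of a list of 7 erythrocyte genes only *Slc4a1* did, above background on 1 array. Genome positions were not used here. Alternatives tried were a trend with intensity, a plain unpaired test, genes above the median signal, averaged probe sets, every probe set, quantile normalization, subtracted array medians, a block for the replicate number, a threshold of 1.5-fold, other background limits and leaving out each array.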

Additional observations from a re-analysis of the deposited data

How the results depend on the processing

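With the adjusted p, 0 markers were called under every alternative run, with a lowest adjusted p of 0.576 (*Cd68* without *Slug*+/+ replicate 3, limma). The count of markers above background depends on the limit. At the 90th percentile of olfactory receptor genes, 6 markers were above on no array. At the 99th, 9 were above on all arrays and 19 on none, with 11, 10 and 14 on the *Slug*+/+ and 13, 12 and 13 on the *Slug*-/- arrays. Leaving out single arrays gave 18 to 20 above on all and 10 to 11 on none. At a fold of 1.5, 3 markers were higher and 2 lower, and of all genes 532 higher and 343 lower. The plain unpaired test left 1 marker at an unadjusted p under 0.05 and put 66 of all genes higher and 33 lower past a fold of 2, against 130 and 69 by limma. Quantile normalization put 1 marker, *Cd68*, past the thresholds as lower. Leaving out single arrays gave 0 to 1 markers higher and 0 to 1 lower past the thresholds and 2 to 5 at an unadjusted p under 0.05, and of all genes 133 to 267 higher, 84 to 124 lower and 0 to 1 past the adjusted p.

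The labels do not say whether equal replicate numbers share a batch, and the arrays cannot decide it. Deviations from the genotype means correlated across genes at 0.03, 0.02 and 0.13 for equal numbers. *Slug*+/+ replicate 1 correlated best with *Slug*-/- replicate 2 (0.05), while *Slug*+/+ replicate 3 correlated best with *Slug*-/- replicate 3 (0.13). With the replicate number as a block, 1 marker was lower past the thresholds, *Tnmd* (-1.09, unadjusted p = 0.0368 from limma), and *Cd248* had an unadjusted p of 0.0509.

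Of differences with overlapping arrays, *Cdh5* turned to 0.036 with array medians subtracted and *Rgs5* to -0.090 with the mean of its probe sets. Leaving out single arrays turned the sign of 14 markers. The ranges were -0.18 to 0.15 for *Cdh5*, -0.32 to 0.038 for *Tie1*, -0.41 to 0.84 for *Lyz2*, -0.14 to 0.25 for *C1qb*, -0.31 to 0.0044 for *C1qc*, -0.030 to 0.26 for *Laptm5*, -0.24 to 0.16 for *Pdgfrb*, -0.20 to 0.086 for *Dpt*, -0.20 to 0.17 for *Pi16*, -0.73 to 0.87 for *Rgs5*, -0.030 to 0.39 for *Acta2*, -0.10 to 0.63 for *Myh11*, -0.23 to 0.036 for *Sox10* and -0.11 to 0.32 for *S100b*. The cause of these changes was not tested. Markers at background limit what the arrays can show.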
